A study of Homo sapiens with 23 samples.

Results

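Lysine 27 of histone H3 can carry an acetyl group (H3K27ac) or be trimethylated (H3K27me3), but one residue cannot hold both. The peak lists of the 2 states were compared in NCI-H23, a human line established from a non-small cell lung cancer. The comparison uses 4 of the 23 samples of the series, 2 libraries for each state, chosen by the mark named in their titles. These 4 libraries hold 713541 of the 2889028 peaks in the 22 deposited lists. H3K27ac was precipitated with a mouse monoclonal antibody and H3K27me3 with a rabbit polyclonal one, so a difference between the marks and one between the antibodies cannot be told apart. The protocol shared by all samples mentions exposure to the BET inhibitor JQ1 or to its solvent DMSO, and no label says which of these a library received. All 4 libraries come from the same line and from populations of cells. The labels do not say that replicates are separate cultures, so the spread between them may be technical. The description of H3K27ac replicate 2 adds an unexplained letter M to its replicate number; the title was followed, and whether that list stems from a single library is not settled by the labels.

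Trimethylation of this lysine is laid down by EZH2 or EZH1, the catalytic subunits of Polycomb repressive complex 2, and marks broad stretches of silent chromatin, among them developmental genes of other lineages. The acetyltransferases p300 and CBP place the acetyl group at active enhancers and promoters. A trimethylated tail has to lose its methyl groups, through the demethylases KDM6A and KDM6B or through replacement of the histone, before it can be acetylated. The exclusion holds for a single tail: a nucleosome has a pair of H3 tails, and alleles and cells of the population can differ, so a place listed for both marks is not a tail with both.

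H3K27ac had 122841 peaks in replicate 1 and 100210 in replicate 2, covering 97.7 Mb and 109.2 Mb. H3K27me3 had 213028 and 277462 peaks, covering 127.1 Mb and 150.0 Mb. The H3K27me3 lists were therefore longer, and their peaks were weaker: 18.1% and 14.5% of them reached a −log10 q of 5, against 43.5% and 55.5% of the H3K27ac peaks. The highest fold enrichment over local background, a value the authors deposited for each peak, was 104.7 and 85.5 for H3K27ac and 15.9 and 14.6 for H3K27me3. Median peak widths were alike, 402 bp and 501 bp for H3K27ac and 434 bp and 400 bp for H3K27me3, but the widest H3K27ac peak spanned 42299 bp in replicate 1 and 120921 bp in replicate 2. Read numbers are not in these lists, so depth is unknown, and a longer list meets any other list more often.

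The other marks of the series separated the 2 states along known lines. H3K4me1, a mark of enhancers, lay on 64.1% ± 5.84 of H3K27ac peaks and on 2.11% ± 0.0701 of H3K27me3 peaks (SD between the libraries of the mark, n = 2). H3K4me3, a promoter mark, lay on 18.5% ± 3.32 and 1.33% ± 0.0900, and H3K36me3, which follows transcription through gene bodies, on 36.2% ± 10.9 and 0.249% ± 0.0833. The doubly acetylated H4 tail H4K5acK8ac lay on 39.3% ± 4.36 and 0.792% ± 0.0628, and BRD2, a BET protein that binds acetylated histones, on 14.6% ± 1.98 and 1.53% ± 0.101. H3K9me3, the mark of constitutive heterochromatin, was the only one of the 9 other targets found more often on H3K27me3, with 29.6% ± 2.08 of its peaks against 4.55% ± 1.76 of H3K27ac peaks.

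Peaks of the 2 states rarely met. Of the H3K27ac peaks, 0.445% in replicate 1 and 0.761% in replicate 2 shared at least 1 bp with H3K27me3 replicate 1 (546 and 763 peaks). With H3K27me3 replicate 2 the shares were 0.793% and 1.38% (974 and 1380 peaks). The longer H3K27me3 list gave the higher share with both H3K27ac lists. Between replicates of one mark the corresponding shares were 57.9% and 60.9% for H3K27ac and 67.6% and 53.9% for H3K27me3.

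The overlap that lists of these lengths and clustering give without alignment was obtained by moving one list around each chromosome by 100 fixed offsets (circular shifts, here called moved lists). Across the 4 pairs of libraries the moved lists overlapped 8.28% to 11.0% of H3K27ac peaks. The observed share was 0.0852 ± 0.0262 of that level (SD between libraries, n = 2; lowest pair 0.0537, highest 0.125). In the other direction 0.267%, 0.360%, 0.369% and 0.516% of H3K27me3 peaks met H3K27ac, against 5.10% to 5.37% in moved lists, a ratio of 0.0722 ± 0.0178. The bases covered by both marks amounted to 164 kb, 250 kb, 322 kb and 472 kb, or 0.0582 ± 0.0200 of the moved level. Limited to the 10000 strongest peaks per list, the 3 ratios were lower still, at 0.0101, 0.00882 and 0.00176. No pair of libraries came near a ratio of 1. An exact comparison of 2 libraries with 2 cannot give a two-sided p below 0.33, so these values are given without a test, and no p was computed over peaks, which are not replicates.

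**Figure D1:**
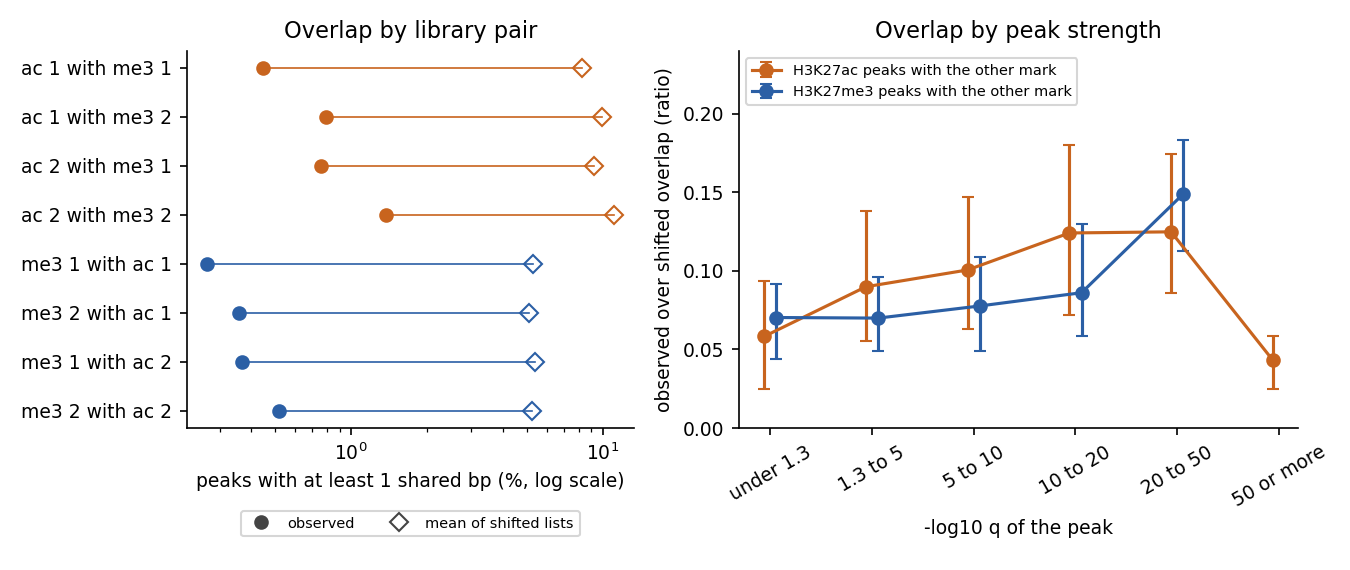
Left, share of peaks of one mark (ac, H3K27ac; me3, H3K27me3; number, replicate) that share at least 1 bp with the other mark, in percent on a log axis, as observed and as the mean of 100 moved lists; right, ratio of observed to moved overlap (mean, lowest and highest of 4 pairs of libraries) by −log10 q of the peak. Every observed share lies below its moved level, and the ratio for H3K27ac falls to 0.0432 in the strongest class.

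How often a peak met the other state varied with its strength, and not in one direction. For H3K27ac the observed over moved ratio was 0.0583 at a −log10 q under 1.3, 0.0899 from 1.3 to 5, 0.101 from 5 to 10, 0.124 from 10 to 20 and 0.125 from 20 to 50. It was 0.0432 at 50 or more, the lowest of the 6 classes, in which each library held 13911 or 17014 peaks. In that class 0.367% to 1.09% of peaks met H3K27me3, while moved lists gave 16.6% on average. The lowest and highest pairs of this class, 0.0250 and 0.0584, lay below the lowest pairs of the 3 classes from 5 to 50, which were 0.0631, 0.0719 and 0.0856. It was not separable from the weak classes: pairs under 1.3 ran from 0.0248 to 0.0937, and those from 1.3 to 5 began at 0.0551. For H3K27me3 the ratio was 0.0703 under 1.3 and 0.0699 from 1.3 to 5, then 0.0776, 0.0861 and 0.149 in the classes from 5 to 10, 10 to 20 and 20 to 50. The last class was small, with 369 and 554 peaks, and there 1.26% to 1.90% of peaks met H3K27ac.

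The H3K27ac peaks that met H3K27me3 were somewhat wider than the rest. Their median width was 478 bp and 585 bp against 401 bp in replicate 1, and 544 bp and 576 bp against 501 bp and 500 bp in replicate 2, for the 2 H3K27me3 partners in turn. Their median −log10 q was 5.62 and 7.14 against 4.21 and 4.18, and 7.13 and 7.82 against 5.72. A wider peak has more room to meet another, and the part of width in this difference was not tested. The median overlapping H3K27ac peak had 50.8% to 54.8% of its length covered. The summit of such peaks lay inside the H3K27me3 peak in 51.4% to 56.7% of cases, and 18.6% to 20.7% were covered whole. Among H3K27me3 peaks that met H3K27ac, 18.3% to 31.3% were covered whole. No moved level was obtained for these shares, so whether they exceed those of unaligned peaks that happen to meet was not tested.

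The separation extended far beyond the peaks. One list was displaced by a set distance, and the bases shared by H3K27ac and H3K27me3 were compared with the moved level. The ratio was 0.0582 without displacement, 0.050 at 0.5 kb, 0.0531 at 2 kb and 0.0835 at 5 kb. In each pair of libraries it was higher without displacement than at 0.5 kb, so the deficit was not deepest at exact coincidence. From there it rose to 0.136 at 10 kb, 0.278 at 50 kb, 0.393 at 100 kb, 0.562 at 200 kb and 0.833 at 500 kb. At 1000 kb the ratio was 0.995, with pairs of libraries from 0.969 to 1.02. Replicates of one mark fell with displacement, from 16.0 for H3K27ac and 10.6 for H3K27me3 without it to 1.53 and 1.52 at 1000 kb. The H3K27ac replicates lay above the H3K27me3 replicates at 10 kb (5.06 against 3.95) and below them at 200 kb (2.20 against 2.68).

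**Figure D2:**
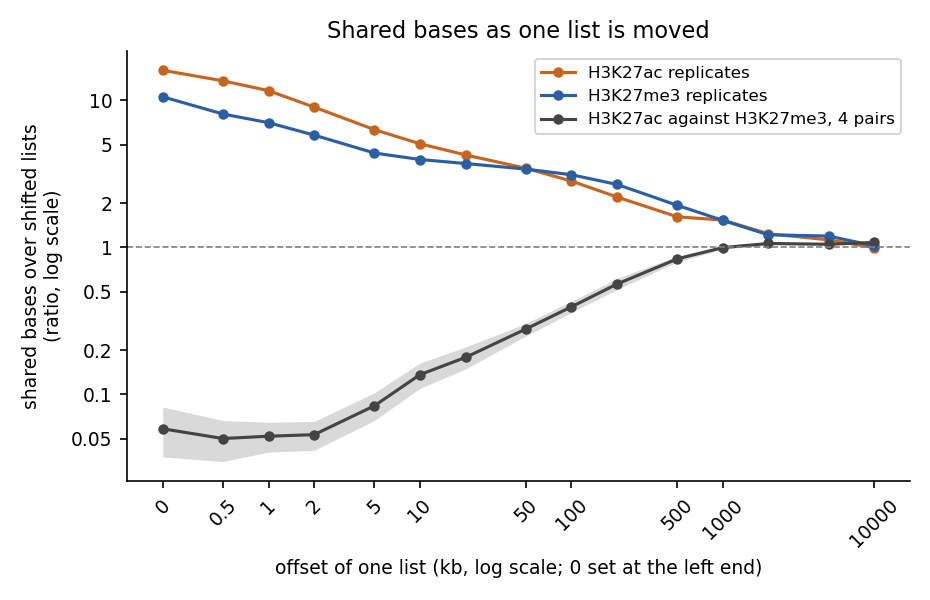
Bases shared by a pair of lists after one is displaced by the distance on the x axis (kb, log scale), divided by the mean of 100 moved lists (log scale); the band spans the 4 pairs of unlike marks, and each mark has 1 replicate pair. The mean of the unlike marks is 0.0835 at 5 kb (pairs from 0.0663 to 0.102) and 0.995 at 1000 kb.

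Distances between nearest peaks gave the same scale in kilobases. The median H3K27ac peak of replicate 1 lay 81.1 kb from the nearest peak of H3K27me3 replicate 1 and 75.7 kb from replicate 2. For H3K27ac replicate 2 these distances were 78.8 kb and 72.2 kb. Moved lists gave 20.5 kb to 27.1 kb, so the observed median was 3.27 ± 0.400 times the moved one (SD between libraries, n = 2; lowest 2.99, highest 3.58). From H3K27me3 to the nearest H3K27ac the medians were 149 kb, 111 kb, 168 kb and 124 kb, against 38.4 kb to 49.0 kb, a ratio of 3.15 ± 0.208. Within a mark the median peak touched a peak of the other replicate, with a distance of 0.

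Fewer H3K27ac peaks than in moved lists had H3K27me3 within 1 kb and still within 100 kb, but not within 1000 kb. Only 1.04% to 2.60% of H3K27ac peaks had H3K27me3 within 1 kb, where moved lists gave 15.1% to 18.7%. Within 100 kb the shares were 57.5% to 60.2% against 72.3% to 75.7%. Within 1000 kb the order was turned: 99.1% to 99.8% of H3K27ac peaks had an H3K27me3 peak that near, against 96.4% to 97.1% in moved lists. Moving also shifts stretches that no list calls onto H3K27ac peaks. These shares were not repeated with such stretches removed, so their part in the turned order was not tested. Strong H3K27ac peaks lay no farther away than weak ones, at 62.5 kb to 72.5 kb in the class with a −log10 q of 50 or more and 75.1 kb to 84.0 kb under 1.3. H3K27me3 peaks of a −log10 q from 20 to 50 lay 53.3 kb to 62.1 kb from H3K27ac, nearer than those from 1.3 to 5, at 115 kb to 172 kb. The distance ratio depended on which peaks entered: it was 1.65 for peaks with a −log10 q of at least 5 and 1.05 for the 10000 strongest of each list.

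**Figure D3:**
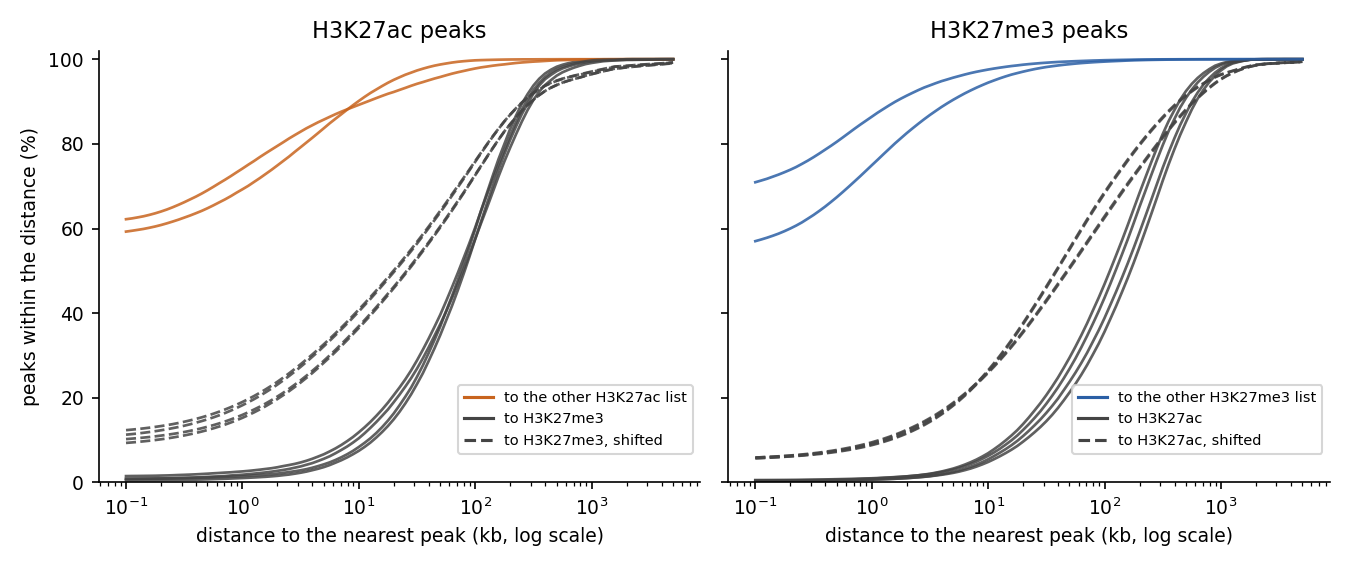
Share of peaks (%) whose nearest peak lies within the distance on the x axis (kb, log scale), for each list against its replicate, against the lists of the other mark, and against those lists after moving. Moved curves use an evenly spaced subset of the 100 offsets. The curves to the other mark lie under the moved ones up to 100 kb and above them at 1000 kb.

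Read along the chromosome, the 2 states formed runs. Of all neighbouring peaks in the joined lists, 5.54% ± 0.763 were of unlike mark (4 pairs of libraries, 4.70% to 6.45%), while the same numbers of peaks in random order on each chromosome would give 40.6% ± 2.79. The ratio was 0.137 ± 0.0232, and 0.328 for the 10000 strongest peaks of each list. Random order also removes the clustering of each mark with itself, which moved lists keep. The part of that clustering in this ratio was not tested. A run of H3K27ac held 9.28 to 13.8 peaks on average over the 4 pairs and one of H3K27me3 21.1 to 29.4, with medians of 3 and 4. Runs of at least 10 peaks held 82.0% ± 5.33 of H3K27ac peaks and 91.8% ± 1.40 of H3K27me3 peaks. The longest H3K27me3 run reached 21.1 Mb or 21.3 Mb and the longest H3K27ac run 6.01 Mb to 10.6 Mb.

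Borders between runs were wider than the gaps inside them. The median gap from summit to summit was 2.23 kb ± 0.290 between H3K27ac peaks, 1.71 kb ± 0.161 between H3K27me3 peaks and 15.0 kb ± 0.745 where the mark changed. Every border gap median (14.0 kb to 16.0 kb) exceeded every gap median within a mark (1.60 kb to 2.45 kb). Of the borders, 21.5% ± 2.07 were nevertheless at most 5 kb wide.

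Segregation was then measured in bins with the dissimilarity index, which is 0 when the covered bases of a pair of lists are spread over the bins in the same way and 1 when no bin holds both. In 10 kb bins the index between H3K27ac and H3K27me3 was 0.984 ± 0.00296 (SD between libraries, n = 2; 281170 bins). In 100 kb bins it was 0.902 ± 0.0105 (28117 bins) and in 1 Mb bins 0.695 ± 0.0164 (2838 bins). Between replicates it was 0.260, 0.214 and 0.169 for H3K27ac and 0.204, 0.109 and 0.0781 for H3K27me3. At each size the lowest of the 4 pairs of unlike marks (0.982, 0.891 and 0.674) lay above both replicate pairs. An exact permutation test over the 3 groupings of the libraries gives a two-sided p of 0.33 whenever the marks separate, so it adds nothing to these values. Moved lists, here from an evenly spaced subset of the 100 offsets, gave 0.885, 0.769 and 0.613. All 4 pairs of libraries lay above those means at each size.

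**Figure D4:**
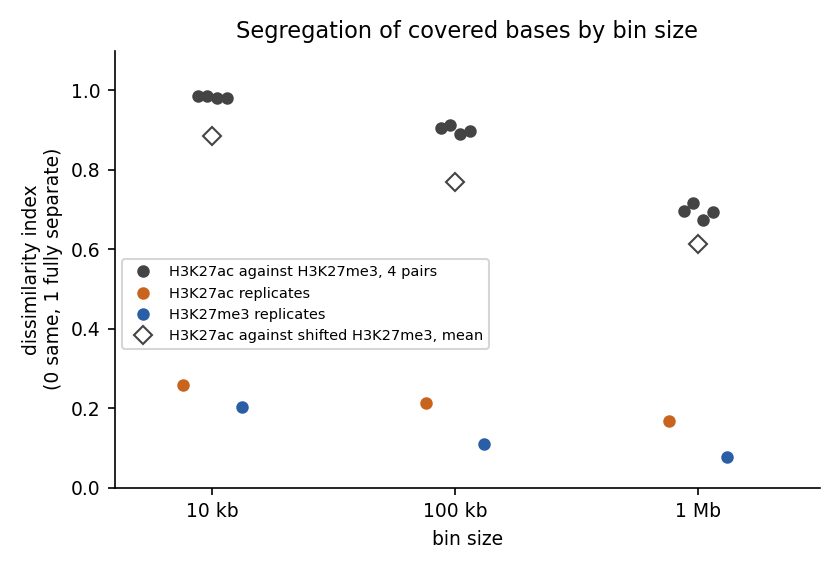
Dissimilarity index of covered bases (y axis, 0 to 1) in bins of 10 kb, 100 kb and 1 Mb, for the 4 pairs of unlike marks, the replicate pair of each mark and the mean of moved lists. That mean uses an evenly spaced subset of the 100 offsets. The index between marks falls from 0.984 to 0.695 with bin size and stays above the replicate pairs, which lie at or below 0.260.

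The share of bins holding both states depended on the bin. Counting a mark as present when both of its lists had a peak in the bin, 0.664% of 10 kb bins held both marks, 0.187 of the 3.55% that independent placement of the same bins gives. In 100 kb bins this share was 21.8% against 28.9%, a ratio of 0.754. In 1 Mb bins it was 86.5% against 86.1%, a ratio of 1.00. H3K27ac was then present in 90.3% of bins and H3K27me3 in 95.3%, which leaves this ratio little room to differ from 1. Of the bins with H3K27ac in both lists, 4.66% had H3K27me3 in both at 10 kb, against 24.9% of all bins. These shares were 44.3% against 58.8% at 100 kb and 95.7% against 95.3% at 1 Mb. The correlation of covered bases over 10 kb bins was weakly negative (Pearson r −0.132 to −0.118 over the 4 pairs), as it was over 1 Mb bins (−0.255 to −0.174). Neighbouring bins can hold one domain and all libraries come from one line, so these correlations only describe the lists.

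Most of the genome leaned one way. A bin was called when the shares of covered bases of both libraries of one mark exceeded those of both libraries of the other. By that rule 10535 of 28117 bins of 100 kb (37.5%) were higher in H3K27ac and 12051 (42.9%) in H3K27me3. Of the 1 Mb bins, 1267 (44.6%) were higher in H3K27ac and 1264 (44.5%) in H3K27me3. The leaning differed by chromosome: on chromosome 22, 25 of 35 bins of 1 Mb leaned to H3K27ac and 6 to H3K27me3, whereas on chromosome 18 the numbers were 23 and 47 of 76.

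The 1 Mb bins at the acetylated end had H3K27ac over long stretches and little H3K27me3. Positions follow the deposited lists, in the build hg19 named in the submitters' processing notes. In chr10:3000001-4000000, H3K27ac covered 414 kb in replicate 1 and 487 kb in replicate 2, and H3K27me3 covered 5.97 kb and 5.58 kb. H3K9me3 covered 202 kb and 252 kb of the same bin, the most among the 5 bins of this end. In chr1:8000001-9000000 H3K27ac covered 341 kb and 469 kb and H3K27me3 0.447 kb and 0.262 kb, the least of the 5. The other bins were chr20:52000001-53000000 with 330 kb and 415 kb of H3K27ac, chr19:1000001-2000000 with 470 kb and 362 kb, and chr11:65000001-66000000 with 321 kb and 294 kb. In these 3 bins H3K27me3 covered 5.09 kb to 17.7 kb. H4K5acK8ac covered 170 kb to 381 kb in the lists of all 5.

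At the methylated end H3K27me3 covered more than 300 kb of each bin and H3K27ac less than 5 kb. The bin chr20:41000001-42000000 had 369 kb and 460 kb of H3K27me3 and no H3K27ac peak in either library, and chr14:79000001-80000000 had 330 kb and 391 kb and again none. The bins chr2:49000001-50000000 (359 kb and 399 kb), chr18:5000001-6000000 (361 kb and 388 kb) and chr12:5000001-6000000 (360 kb and 384 kb) held 0.852 kb to 4.64 kb of H3K27ac. Chromosome 20 thus gave a bin to either end. H3K9me3 accompanied H3K27me3 unevenly, from 191 kb and 256 kb in the chromosome 20 bin to 26.6 kb and 35.6 kb in that on chromosome 14. H3K36me3 covered at most 5.75 kb in these 5 bins, in the one on chromosome 18. These 10 bins were chosen by the coverage reported here, which is therefore only a description.

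Megabases rich in both states kept them apart at finer scale. A bin was rich in a mark when both of its libraries covered more than their own genome-wide average; 751 of the 2838 bins were rich in H3K27ac, 853 in H3K27me3 and 99 in both, 0.439 of the number that independence gives. Within those 99 bins the dissimilarity in 10 kb bins was 0.977 ± 0.00349 (9880 bins; lowest 0.974, highest 0.979), close to 0.984 over the genome. The replicate pairs in the same bins gave 0.222 for H3K27ac and 0.140 for H3K27me3.

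Chromosomes differed in which state they carried. Density was taken as covered bases per called length, with the genome set to 1. Read depth and copy number of each chromosome are not in these lists, and their part in these densities was not tested. H3K27ac lay above H3K27me3 in both libraries against both on 9 of 23 chromosomes (39.1%) and H3K27me3 above on 11 (47.8%); chromosomes 10, 11 and 13 were mixed. Chromosome 22 had the highest ratio of H3K27ac to H3K27me3, 6.10 (5.07 to 7.15 over the 4 pairs), from H3K27ac densities of 2.37 and 1.71 and H3K27me3 densities of 0.331 and 0.338, the latter the lowest of all chromosomes. Chromosome 19 followed at 3.71 (3.11 to 4.31), with the highest H3K27ac densities, 3.60 and 2.62. Chromosome 17 had 2.75 (2.29 to 3.28). The ranges of chromosomes 19 and 17 overlapped, and that of chromosome 22 overlapped neither.

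The lowest ratios belonged to chromosome 18 with 0.488 (0.434 to 0.544), chromosome 5 with 0.594 (0.510 to 0.680) and chromosome X with 0.666 (0.566 to 0.787). These 3 ranges overlapped from one to the next, and the range of X also held those of chromosome 8 with 0.669 (0.599 to 0.741) and chromosome 3 with 0.684 (0.638 to 0.731), so the third place is not separable from them. The 3 chromosomes did not resemble each other otherwise: H3K27me3 was above the genome average on chromosome 18 (1.22 and 1.26) and chromosome 5 (1.16 and 1.19), and below it on X (0.564 and 0.677), where H3K27ac was lower still (0.383 and 0.444). Chromosome 20 was dense in both, with 1.95 and 1.76 for H3K27ac and 2.00 and 1.99 for H3K27me3, the highest H3K27me3 densities of the genome. Chromosomes 4 and 13 were poor in both, at 0.395 to 0.643 for H3K27ac and 0.504 to 0.568 for H3K27me3.

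**Figure D5:**
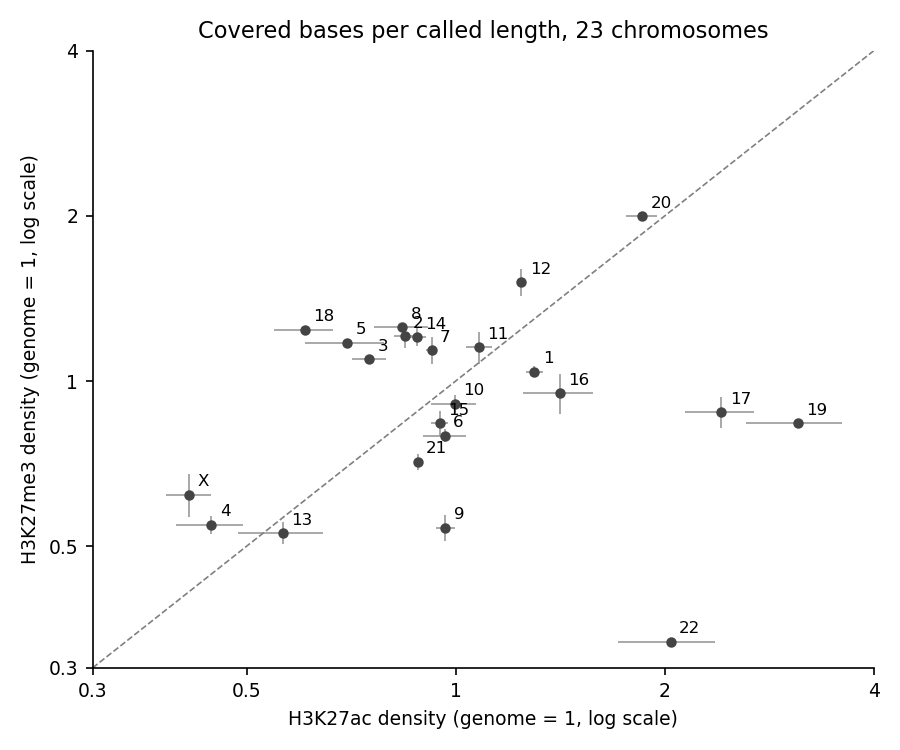
Density of H3K27ac (x) and H3K27me3 (y) on 23 chromosomes, as covered bases per called length with the genome set to 1, both axes log; points are means of 2 libraries and bars reach the 2 libraries, and the dashed line marks equal density. Chromosomes 22, 19 and 17 lie far to the right of the line, chromosome 18 lies above it and chromosome 20 is dense in both.

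Over all 23 chromosomes the densities of the 2 states were nearly unrelated (Pearson r −0.00958 to 0.150, Spearman rho 0.0455 to 0.134 over the 4 pairs, given without p). Without chromosomes 17, 19 and 22, r between the mean densities was 0.632 over 20 chromosomes, against 0.0584 with them, and rho was 0.263 against 0.0356. Leaving out chromosome 20 as well gave r 0.381 and rho 0.140 over 19. Chromosomes 17, 19 and 22 have the highest ratios of these same densities, so leaving them out favours a higher r. Those with the lowest ratios were not left out in turn, and these values are only a description. H3K27ac density followed the number of protein-coding genes per called length, counted in a gene table of another build (n = 23, r 0.938, rho 0.906), while H3K27me3 density did not (r −0.0909, rho −0.0791). Peaks of the 2 states met less often than in moved lists on each chromosome. Moving a list also undoes separation over longer distances, so this does not single out exclusion at peaks. The ratio of observed to moved overlap of H3K27ac peaks ran from 0.0369 on chromosome 16 to 0.147 on chromosome 4, below 1 on all 23. The distance ratio was above 1 on 22 of them, highest at 6.49 on chromosome 11. The exception was chromosome 9 with 0.576, where the observed median distance of 83.6 kb was ordinary and the moved one, 222 kb, was long. After 100 kb bins without a peak in any list were removed before moving, chromosome 9 gave 2.16 (1.93 to 2.41), on the other side of 1; this setting was added after the value was seen.

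A small set of regions carried both states in every library. Peaks of all 4 lists coincided in 284 regions covering 69.4 kb, with a median width of 210 bp. Beside them stood 77248 regions of both H3K27ac lists without H3K27me3 (70.0 Mb) and 169923 of both H3K27me3 lists without H3K27ac (73.8 Mb). Single pairs of libraries gave 591, 1038, 819 and 1506 regions. The number depended on weak peaks: 42 regions had a −log10 q of at least 5 in all lists, and none was left among the 10000 strongest peaks. Requiring 3 lists in place of 4 gave 579 without H3K27ac replicate 1, 799 without H3K27me3 replicate 1, 411 without H3K27ac replicate 2 and 398 without H3K27me3 replicate 2. Of the 284, 70 were narrower than 100 bp and 23 were at least 500 bp wide. Neighbouring regions can be pieces of the same peaks: chr1:228247465-228247505 and chr1:228247563-228247849 lie in the same H3K27ac peak in each library. Counts of regions, here and below, are therefore not counts of separate loci.

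The regions with both states mostly carried the promoter mark. H3K4me3 was found in both of its lists at 246 of the 284 (86.6%), against 24.9% of the regions with H3K27ac alone and 1.09% of those with H3K27me3 alone. Trimethylated lysine 4 beside trimethylated lysine 27 is the pattern known as bivalent at developmental promoters, here with acetylation listed as well. H4K5acK8ac was in both lists at 234 (82.4%, against 48.4% and 0.209%) and H4K5ac at 215 (75.7%, against 48.8% and 0.294%). H3K4me1 was in both lists at 131 (46.1%, against 66.5% and 1.13%). H3K36me3 was rare, at 11 regions (3.87%, against 31.1% and 0.0965%). H3K9me3 was in both lists at 58 (20.4%), against 2.83% of the regions with H3K27ac alone and 25.3% of those with H3K27me3 alone. BRD2 was in both lists at 43 (15.1%), near the 14.8% of regions with H3K27ac alone. The median such region had a peak in 15 of the 22 lists, and 7 had one in at least 20, which leaves 277 with a peak in under 20. Regions called in most lists remain among these, such as chr19:27731964-27732381 with 19.

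Chromosomes 1 and 2, the longest with 2261 and 2387 called bins of 100 kb, held 40 of these regions each, and the short chromosomes 21 and 22, with 355 and 345 bins, held 1 each. Chromosomes of like length also differed: chromosome 17 held 28 in 782 bins and chromosome 16 held 1 in 787, while chromosome 12 held 25 in 1310 and chromosome 13 none in 959. The widest with a peak in under 20 of the 22 lists was chr1:111746321-111747301, with 981 bp and a peak in 18 lists. H3K27ac peaks there had a fold enrichment of 8.35 and 7.80 and H3K27me3 peaks 5.31 and 4.76, and both lists of H3K4me3, H3K4me1 and the 4 H4 acetylation targets had a peak. The same held for chr18:2905903-2906775 (873 bp), with folds of 6.77 and 5.69 for H3K27ac and 4.41 and 5.79 for H3K27me3. At chr12:6809139-6809861 (723 bp) the H3K27ac folds were 12.3 and 4.50 and the H3K27me3 folds 4.88 and 4.60. At chr1:114696043-114696764 (722 bp) H3K27ac was the stronger by far, 16.4 and 15.1 against 3.39 and 4.08. The third widest, chr19:12404907-12405766 (860 bp), differed from these: it had H3K9me3 in both lists, no H4K5ac, H4K8ac, H4K12ac or BRD2 peak, and H3K4me3 in both, with folds of 6.61 and 5.89 for H3K27ac and 5.45 and 5.05 for H3K27me3. None of the 5 had H3K36me3.

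Set among all 55 pairs of targets in the series, this pair of states was among the most separate, though not the most separate by each measure. Its mean Jaccard index, the bases covered by both lists over those covered by either, was 0.00123, second from the lowest after H3K27me3 with H3K36me3 (0.000710). The ranges of these pairs over libraries overlapped (0.000731 to 0.00183 and 0.000485 to 0.000941). In 100 kb bins the dissimilarity of H3K27me3 and H3K36me3 was higher, 0.934 (0.931 to 0.937) against 0.902 (0.891 to 0.914), with no overlap. In 1 Mb bins H3K27me3 and H3K27ac ranked first with 0.695 (0.674 to 0.718), followed by H3K27me3 with H4K5acK8ac at 0.675 (0.660 to 0.691), whose range overlapped. The lists differ in length, and its part in these ranks was not tested.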

How the data were processed

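The members, the chromosomes and the rules below were chosen with earlier results of these data known. Each sample has 1 list of peaks; the labels do not state pooling. The submitters' processing notes name BWA, MACS2 and the build hg19, without versions or settings; the control of each call is not given in the sources used here. Per the file layout, the authors deposited for each peak a fold enrichment (a ratio to local background), a −log10 p and a −log10 q, and the summit's offset. The deposited lists go down to a −log10 p of about 2.00 and between 1.09% and 3.03% of peaks in these 4 lists had a q above 0.05; all were kept. Outside chromosomes 1 to 22 and X, 12 to 84 peaks per list were left out. Read depth is unknown.

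Python 3.11.15 was used, lists being read with pandas 2.3.3, computed on with numpy 2.4.6 and scipy 1.17.1 and plotted with matplotlib 3.10.9. An overlap needs at least 1 shared bp. Moved lists are the mean of 100 evenly spaced circular offsets of each chromosome's span, a baseline and not a test. Bins count only where some list of the 22 has a peak in the 100 kb bin, and a 1 Mb bin needs 5 such bins. Values for the marks are means of the 4 pairs of libraries, and the SD is the larger of those between the 2 libraries of either mark. Gaps and runs use summits in order along the chromosome. Functions were tested on simulated lists. Named bins are the 5 highest and 5 lowest of 1 Mb, at most 2 per chromosome; named regions are the 5 widest in all 4 lists with a peak in under 20 of the 22; named chromosomes are the 3 highest and 3 lowest ratios. The gene table is of another build, GRCh38.p14, so it served only to count protein-coding genes per chromosome; genes and sequences at these positions were not analysed here. Alternatives covered the peaks entered, the overlap needed, summits, the span moved, autosomes only, each library left out and same-numbered libraries only.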

Additional observations from a re-analysis of the deposited data

How the results depend on the processing

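Of 105 alternative values, 81 stayed within the spread between libraries (counts within 1.5 times) and 23 moved beyond it. Among the 105, 40 left out a library, and 38 of these stayed. Leaving out 1 of 2 libraries moves a mean by less than the SD between them. Apart from the counts of regions, those values could therefore not leave the spread and do not show robustness. The remaining alternative, 1 ratio, changed side of 1: the distance ratio on chromosome 9, 0.576 as reported and 2.16 with uncalled bins removed. That alternative was added after the data were seen. Limited to the 10000 strongest peaks per list, the overlap ratios were 0.0101 for H3K27ac, 0.00882 for H3K27me3 and 0.00176 for bases, the distance ratio 1.05, the dissimilarity 0.998, 0.963 and 0.734 in 10 kb, 100 kb and 1 Mb bins, the ratio of unlike neighbours 0.328, the correlation of chromosome densities 0.28 and the regions with both marks 0. With peaks of a −log10 q of at least 5, the distance ratio was 1.65, the dissimilarity 0.993 in 10 kb and 0.929 in 100 kb bins, the ratio of unlike neighbours 0.184, the correlation 0.222 and the regions 42. Counting summits gave a dissimilarity of 0.978 and 0.884 in 10 kb and 100 kb bins and a correlation of -0.068, across 0 from the reported 0.0681. Removing uncalled bins gave a distance ratio of 3.81 over all chromosomes. The cause of these shifts was not tested, beyond fewer peaks entering in the first 2 settings.

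Leaving out 1 library at a time gave 0.0667 to 0.104 and 0.0596 to 0.0848 for the shares, 0.0441 to 0.0724 for bases, 2.99 to 3.55 for the distance ratio, 0.982 to 0.986, 0.895 to 0.91 and 0.684 to 0.707 for the dissimilarities, 0.12 to 0.153 for unlike neighbours, 0.0142 to 0.122 for the correlation and 398 to 799 regions, the last since fewer lists had to agree. With the replicate block, which pairs only same-numbered libraries, the ratios were 0.0892, 0.0748, 0.0597 and 3.26 and the regions of a pair averaged 1050, as 2 lists were required and not 4; no other value left the spread. The labels do not say whether same-numbered libraries of the 2 marks belong together. The deviations of the 2 marks between their libraries had r 0.000562 over 28117 bins of 100 kb. That value concerns peak coverage only and cannot settle whether the libraries are paired. Depth, unknown here, limits how many weak peaks each list holds, and 2 libraries per mark limit every SD.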
